A study of Homo sapiens with 3 samples.

Results

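The genes described here are 10 transcriptional outputs and feedback inhibitors of the ERK mitogen-activated protein kinase (MAPK) pathway, chosen by name: DUSP4, DUSP5, DUSP6, SPRY2, SPRY4, SPRED1, ETV4, ETV5, PHLDA1 and FOSL1. All 10 were among the 16662 genes of the expression table, and all 10 were among the 13879 genes whose mean over the libraries reached 1 CPM (counts scaled to a common library total, normalised as given below). The libraries came from H1975, an established human lung adenocarcinoma line that carries mutant EGFR, transfected with the HHLA3 small interfering RNA siHHLA3-1, with another numbered siHHLA3-3, or with the control siNC. Transfection was done at about 70% confluency, with 6 h in serum-free medium and a further 24 h in 10% serum before RNA was taken. Each siRNA had 1 library and each library has a batch label of its own, so siRNA and batch cannot be told apart, and no p-value was computed. Intervals are exact 95% intervals that cover counting error only. All differences describe these 3 libraries. The 10 genes were named with earlier results of these data known, so shares of them past a threshold are no independent test.

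In the ERK cascade, a growth factor receptor such as EGFR activates RAS, which activates the kinases RAF, MEK and ERK in turn. Active ERK switches on transcription factors and, with them, its own brakes. The dual-specificity phosphatases (DUSP) remove phosphate from ERK, and the Sprouty (SPRY) and SPRED proteins act between the receptor and RAF. Transcripts of such genes are widely used as a readout of pathway output in EGFR-mutant lung cancer cells.

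The library totals recovered from the deposited counts and CPM were 35069930 with siHHLA3-1, 26950852 with siHHLA3-3 and 32813003 with siNC. HHLA3, the targeted gene, had 55 counts (1.55 CPM) with siHHLA3-1 and 20 counts (0.735 CPM) with siHHLA3-3, against 192 counts (5.99 CPM) with siNC. Mitochondrially encoded genes took between 5.93% and 6.24% of these totals. All 6 epithelial markers examined (EPCAM, CDH1 and 4 keratins) were expressed, with a summed level of 4935 CPM with siHHLA3-1, 4129 CPM with siHHLA3-3 and 5255 CPM with siNC. Of 5 lung lineage markers, NKX2-1 and NAPSA had values. NKX2-1 stood at 72.0 CPM with siHHLA3-1 and 35.0 CPM with siHHLA3-3, against 65.7 CPM with siNC. Of 14 immune, endothelial and fibroblast markers 4 had values, none of them 0. The endothelial cadherin gene CDH5 had 19.2 CPM with siHHLA3-1 and 3.01 CPM with siHHLA3-3, against 7.95 CPM with siNC, and the fibroblast collagen gene COL1A1 had 24.5, 10.9 and 11.3 CPM in the same order. The monocyte gene CD14 had 9.83 CPM with siHHLA3-1 and 6.50 CPM with siHHLA3-3, against 9.76 CPM with siNC. The part of these markers in the results below was not tested.

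Promoter windows from RefSeq (GRCh38.p14, 250 bases before to 50 bases after the annotated start) were found for 5 of the 10 genes. Those of SPRY4 and DUSP6, which were higher with siHHLA3-3, of PHLDA1, which was higher to a smaller degree, and of SPRED1, which was lower, are shown so that the regulatory sequence can be read beside the values. They lie at chr5:142324198-142324497 (minus strand), chr12:89352452-89352751 (minus strand), chr12:76031727-76032026 (minus strand) and chr15:38252586-38252885 (plus strand). Capitals mark an ETS site, searched as CCGGAA on both strands, the kind of site that ETV4 and ETV5 bind.
SPRY4: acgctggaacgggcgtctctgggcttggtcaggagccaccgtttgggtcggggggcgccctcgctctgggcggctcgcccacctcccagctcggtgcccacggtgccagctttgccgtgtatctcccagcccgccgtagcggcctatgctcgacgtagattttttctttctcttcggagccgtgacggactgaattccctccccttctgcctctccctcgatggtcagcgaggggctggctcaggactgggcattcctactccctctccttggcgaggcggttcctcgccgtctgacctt
DUSP6: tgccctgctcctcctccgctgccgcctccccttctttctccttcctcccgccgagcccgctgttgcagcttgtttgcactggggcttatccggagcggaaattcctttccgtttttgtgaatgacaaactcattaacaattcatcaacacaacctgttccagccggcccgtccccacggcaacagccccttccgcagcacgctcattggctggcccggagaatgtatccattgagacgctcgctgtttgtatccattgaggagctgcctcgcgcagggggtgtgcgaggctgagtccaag
PHLDA1: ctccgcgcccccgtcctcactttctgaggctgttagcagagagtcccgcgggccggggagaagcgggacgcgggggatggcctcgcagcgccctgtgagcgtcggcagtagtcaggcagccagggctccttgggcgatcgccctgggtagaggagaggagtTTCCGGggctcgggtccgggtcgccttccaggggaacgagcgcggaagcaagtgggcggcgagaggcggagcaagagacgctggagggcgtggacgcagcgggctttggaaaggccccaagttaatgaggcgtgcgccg
SPRED1: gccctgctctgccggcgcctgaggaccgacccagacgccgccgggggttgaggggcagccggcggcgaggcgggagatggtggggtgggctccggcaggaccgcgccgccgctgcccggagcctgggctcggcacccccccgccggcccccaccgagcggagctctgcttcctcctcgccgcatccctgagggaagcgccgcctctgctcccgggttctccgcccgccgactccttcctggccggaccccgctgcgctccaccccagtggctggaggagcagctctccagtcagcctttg
The PHLDA1 window held 1 ETS site, written on the opposite strand at position -89 from the start, and those of SPRY4, DUSP6 and SPRED1 held none. SPRY2 has 3 windows, of which 1 held an ETS site, at position -142. Of all 35116 windows, 17.2% held one. No window of these 5 genes held an AP-1 site (TGANTCA, both strands, in 7.71% of all windows) or the CArG box of serum response factor (1.29% of all windows). Such matches describe letters and show no binding.

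The 3' untranslated regions (UTRs) annotated in GENCODE release 29 (GRCh38) were searched for the 7-base sequences CAGAATG and GTGAACT, which an earlier scan of these same ratios had picked out for genes lower with siHHLA3-1 and with siHHLA3-3. CAGAATG was found in 3 of the 10 genes, DUSP4, DUSP6 and SPRY4, and in 19.5% of 10493 genes whose mean reached 5 CPM and which had an annotated region. GTGAACT was found in 0 of the 10, SPRED1 included, and in 13.2% of those genes. The sites in DUSP6 (chr12:89347537-89347565, minus strand) and SPRY4 (chr5:142313077-142313105, minus strand) are shown so that the 7 bases can be read in their context, and the DUSP4 site is not shown. With siHHLA3-1 the log2 ratio to siNC of (CPM + 1) was -0.61 for DUSP4, -0.01 for DUSP6 and -0.12 for SPRY4, and its median was -0.09 over all genes that carry CAGAATG and -0.02 over those that do not. With siHHLA3-3 the medians were -0.196 over genes that carry GTGAACT and -0.0034 over those that do not. Since both sequences were picked from these same ratios, the lower medians of carriers follow from that choice and test nothing. Capitals mark the 7 bases.
DUSP6 site: aatgctgaatcCAGAATGatgtctccact
SPRY4 site: cctcccattggCAGAATGaccgctgagcc

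The comparisons with siNC ask how ERK output genes stood after transfection of each HHLA3 siRNA, and the values differed by siRNA. With siHHLA3-3, FOSL1, ETV5, SPRY4, DUSP6 and ETV4 were between 1.59-fold and 2.10-fold higher than with siNC, and SPRED1 was 1.79-fold lower. With siHHLA3-1, 9 of the 10 genes were below siNC on the log2(CPM + 1) scale, by small amounts. The furthest of them was DUSP4, 1.55-fold lower, and DUSP5 alone was above siNC, 1.24-fold.

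**Figure D1:**
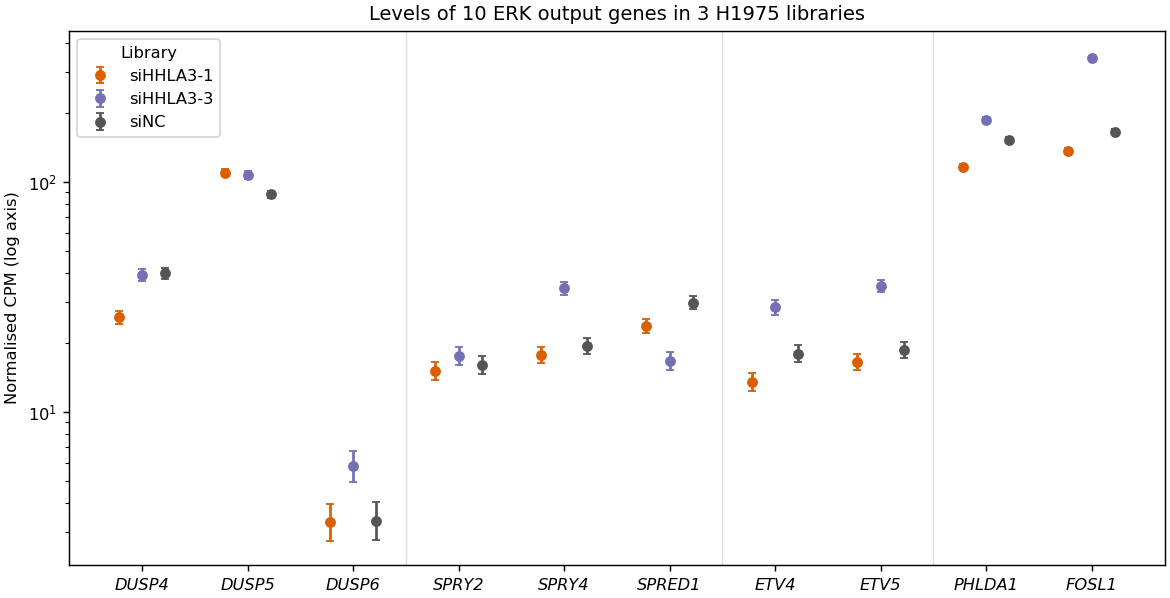
Normalised CPM (log axis) of the 10 genes with siHHLA3-1, siHHLA3-3 and siNC. Points are single libraries and bars are exact 95% Poisson intervals. FOSL1, ETV4, ETV5, SPRY4, DUSP6, PHLDA1 and SPRY2 have their highest point with siHHLA3-3, SPRY2 with overlapping bars, and SPRED1 has its lowest there.

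The deposited TPM (transcript abundances scaled by gene length) allow levels to be compared between genes. FOSL1 had the highest TPM of the 10 in every library, with 257 TPM with siHHLA3-1 and 658 TPM with siHHLA3-3, against 299 TPM with siNC. DUSP5 came next with 154, 151 and 119 TPM, and then PHLDA1 with 70.0, 113 and 87.7 TPM, in the same order of libraries. DUSP6 was lowest in every library, at 3.07 and 5.38 TPM with siHHLA3-1 and siHHLA3-3, against 2.98 TPM with siNC. The other 6 genes lay close together, between 10.1 and 18.8 TPM with siNC, and their order changed between libraries. ETV5 held place 8 of 10 with siHHLA3-1, 5 with siHHLA3-3 and 8 with siNC. SPRED1 held places 7, 9 and 7. With 1 library each, the spread between replicates of neighbours in this order is unknown.

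Among the phosphatases, DUSP6, the cytoplasmic phosphatase specific for ERK, had 118 counts (3.32 CPM, interval 2.75 to 3.98) with siHHLA3-1 and 158 counts (5.80 CPM, 4.93 to 6.78) with siHHLA3-3, against 108 counts (3.37 CPM, 2.76 to 4.06) with siNC. The siHHLA3-3 interval does not overlap the others, which overlap each other. DUSP6 was thus 1.72-fold higher with siHHLA3-3 than with siNC (1.34 to 2.22), and its fold was 0.987 with siHHLA3-1 (0.754 to 1.29). It had the fewest counts of the 10 genes and the widest intervals. In GENCODE release 29 on GRCh38, not the build hg19 named by the submitters, DUSP6 lies on chromosome 12 from 89347232 to 89353271.

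DUSP4 and DUSP5 are nuclear phosphatases of the same family, and neither had this pattern. DUSP4 (chromosome 8, 29333064 to 29350668) stood at 25.8 CPM with siHHLA3-1 (915 counts) and 39.5 CPM with siHHLA3-3 (1075 counts), against 40.0 CPM with siNC (1282 counts). It was 1.55-fold lower with siHHLA3-1 (1.42 to 1.69), and its fold with siHHLA3-3 was 0.988 (0.910 to 1.07). DUSP4 was thus the lowest of the 10 ratios with siHHLA3-1, and the siHHLA3-3 and siNC libraries could not be told apart at this depth. DUSP5 (chromosome 10, 110497838 to 110511544) stood at 110 CPM with siHHLA3-1 (3896 counts) and 107 CPM with siHHLA3-3 (2920 counts), against 88.3 CPM with siNC (2832 counts). Its folds over siNC were 1.24 (1.18 to 1.30) and 1.21 (1.15 to 1.28), so siNC was the low library. The pseudogene DUSP5P1, which resembles DUSP5, had 1.01 CPM with siHHLA3-1 and 1.03 CPM with siHHLA3-3, against 1.40 CPM with siNC. Its level was near 1 CPM in every library.

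The inhibitors that act between the receptor and RAF went apart. SPRY4 (chromosome 5, 142310427 to 142326455) had 17.6 CPM with siHHLA3-1 (626 counts) and 34.4 CPM with siHHLA3-3 (936 counts), against 19.3 CPM with siNC (619 counts). It was 1.78-fold higher with siHHLA3-3 (1.61 to 1.98), and its fold with siHHLA3-1 was 0.914 (0.816 to 1.02). Its relative SPRY2 (chromosome 13, 80335976 to 80340951) had 15.1 CPM with siHHLA3-1 and 17.4 CPM with siHHLA3-3, against 16.0 CPM with siNC. The folds of SPRY2 were 0.940 (0.832 to 1.06) and 1.09 (0.959 to 1.24), and both intervals hold 1. The higher SPRY4 level with siHHLA3-3 thus had no counterpart of that size in SPRY2.

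SPRED1, which brings the RAS inhibitor neurofibromin to the membrane, was the lowest of the 10 ratios with siHHLA3-3. It lies on chromosome 15 from 38252326 to 38357249. Its level was 23.6 CPM (22.0 to 25.2, 837 counts) after siHHLA3-1 and 16.7 CPM (15.2 to 18.3, 454 counts) after siHHLA3-3, against 29.9 CPM with siNC (958 counts, 28.0 to 31.8). No interval overlaps another, and both HHLA3 libraries are below siNC. The difference was 1.27-fold for siHHLA3-1 (1.15 to 1.39) and 1.79-fold for siHHLA3-3 (1.60 to 2.01).

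ETV4 and ETV5 are ETS transcription factors of the PEA3 group, which act downstream of ERK. In the siHHLA3-1 library ETV5 (chromosome 3, 186046308 to 186110318) had 586 counts, or 16.5 CPM (15.2 to 17.9), and in the siHHLA3-3 library 959 counts, or 35.2 CPM (33.0 to 37.5), against 18.6 CPM with siNC (598 counts, 17.2 to 20.2). Relative to siNC it was 1.13-fold lower with siHHLA3-1 (1.01 to 1.27) but 1.89-fold higher with siHHLA3-3 (1.70 to 2.10). For ETV4 (chromosome 17, 43527844 to 43579620) the values were 478 counts or 13.5 CPM (12.3 to 14.7) with siHHLA3-1, and 774 counts or 28.4 CPM (26.5 to 30.5) with siHHLA3-3, against 17.9 CPM with siNC (575 counts, 16.5 to 19.5). This was 1.33-fold lower with siHHLA3-1 (1.18 to 1.51) but 1.59-fold higher with siHHLA3-3 (1.42 to 1.77). Both ETS genes therefore stood on opposite sides of siNC in the HHLA3 libraries. For ETV5 the siHHLA3-1 side was small, and its size, but not its sign, varied with the processing. The log2 ratio of ETV5 was -0.17, or -0.12 with library totals alone and -0.09 with 1 added to the deposited FPKM. ETV4 overlaps DHX8 on the opposite strand, and ETV5 overlaps DGKG on its own strand. DHX8 had 111 CPM with siHHLA3-1 and 122 CPM with siHHLA3-3, against 113 CPM with siNC, and DGKG had 5.86, 4.37 and 4.55 CPM in that order. No source used here gives the use of strand in counting, so reads of these pairs may have been shared.

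FOSL1 encodes FRA1, a subunit of the AP-1 transcription factor that ERK induces and stabilises. It lies on chromosome 11 from 65892049 to 65900573. It had 4838 counts (136 CPM, 132 to 140) with siHHLA3-1 and 9458 counts (347 CPM, 340.4 to 354) with siHHLA3-3, against 5298 counts (165 CPM, 161 to 170) with siNC. FOSL1 was 1.21-fold lower with siHHLA3-1 (1.17 to 1.26) but 2.10-fold higher with siHHLA3-3 (2.03 to 2.18). It was the single gene of the 10 past 2-fold against siNC, and its log2 ratio of 1.07 ranked 84 from the top of 13879 genes. PHLDA1 (chromosome 12, 76025447 to 76033932), a pleckstrin homology-like protein induced by growth factors, had 116 CPM with siHHLA3-1 (4128 counts) and 187 CPM with siHHLA3-3 (5082 counts), against 152 CPM with siNC (4865 counts). Its direction was that of FOSL1 with a smaller size, 1.30-fold lower with siHHLA3-1 (1.25 to 1.36) while siHHLA3-3 gave 1.23-fold higher (1.18 to 1.28).

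**Figure D2:**
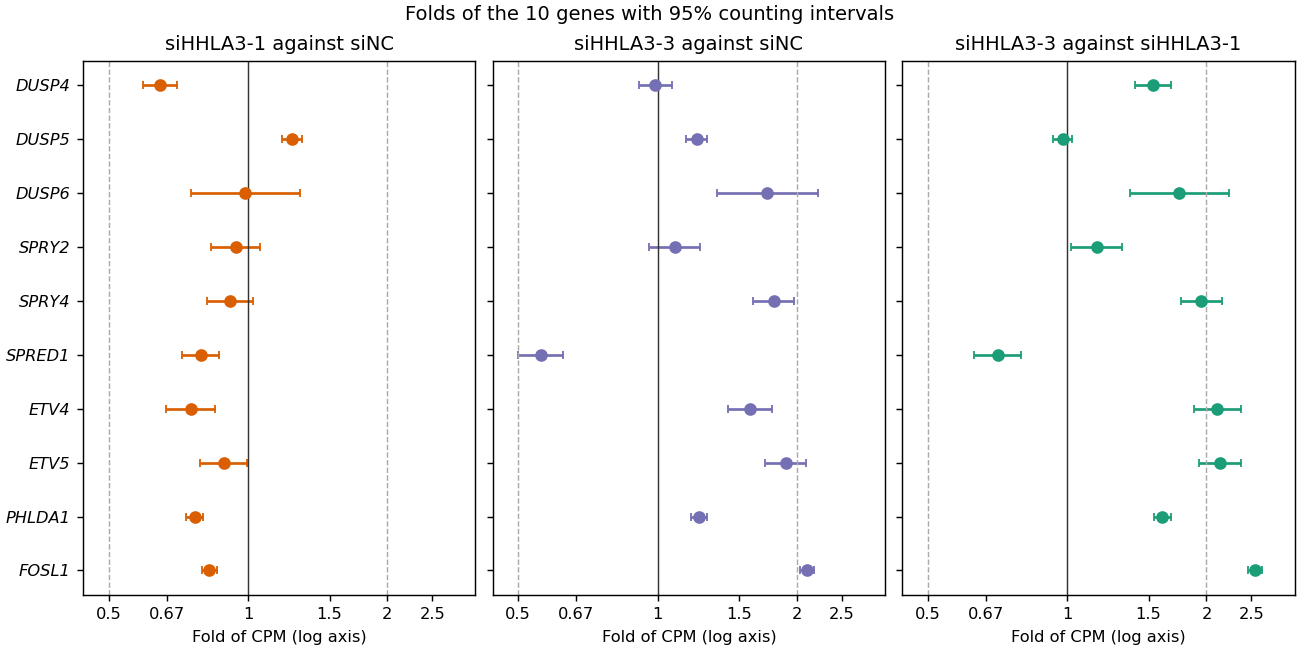
Folds of CPM (log axis) of the 10 genes in each comparison, with exact 95% counting intervals; dashed lines mark 2-fold. With siHHLA3-1 against siNC all points lie between 0.645 and 1.24, and with siHHLA3-3 against siNC they run from 0.558 for SPRED1 to 2.10 for FOSL1.

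As a list, the 10 genes had a median log2 ratio of -0.22 with siHHLA3-1 and 0.47 with siHHLA3-3, both against siNC, where the medians of all 13879 genes were -0.01 and -0.01. Without DUSP6, which had a mean under 5 CPM, the median with siHHLA3-3 was 0.30. Counts of genes past 2-fold or 1.5-fold were taken on the log2(CPM + 1) scale, here and below. With siHHLA3-1, none of the 10 genes (0 higher, 0 lower) reached 2-fold, where 0.973% of all genes were that much higher and 0.382% that much lower. At 1.5-fold, 0 were higher and 1 was lower (DUSP4), against 5.03% and 3.34% of all genes. These counts are near the background and are no result about the list. Below 0 were 9 of the 10 ratios, and 7186 of the 13879. Counting intervals left out 1 for 7 of the 10 genes and for 61.2% of all genes.

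With siHHLA3-3 against siNC, 1 of 10 genes was at least 2-fold higher and 0 were lower, where the share of all genes was 0.807% higher and 1.48% lower (112 and 205 genes, or 136 and 158 with the deposited TPM). At 1.5-fold, 5 of 10 were higher against 3.65% of all genes, and 1 of 10 was lower against 5.57%. The 5 were FOSL1, ETV5, SPRY4, DUSP6 and ETV4, which ranked 84, 155, 208, 390 and 397 from the top of 13879 genes. The lower gene was SPRED1, which ranked 383 from the bottom. The share past 1.5-fold higher thus lay above that of all genes. Because the list was chosen with earlier results of these data known, this excess was not an independent finding. Counting intervals left out 1 for 8 of the 10 genes and for 58.2% of all genes. The comparisons of both HHLA3 siRNAs with siNC share the siNC library.

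**Figure D3:**
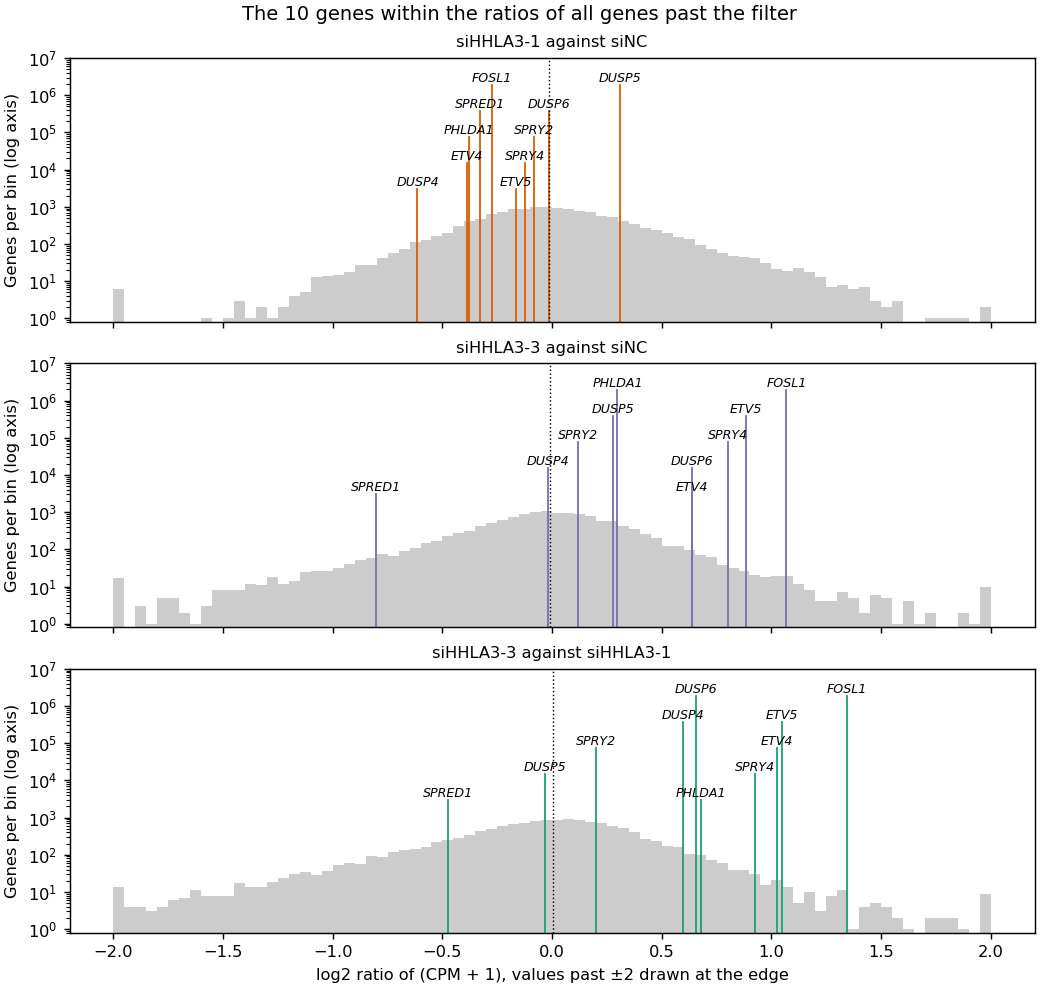
Distribution of log2 ratios of (CPM + 1) for 13879 genes (grey bars of 0.05, log count axis) with the 10 genes marked; the dotted line is the median of all genes. FOSL1 is the furthest right of the 10 in the lower panels, at 1.07 and 1.34, and SPRED1 the furthest left, at -0.80 and -0.48.

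Setting the HHLA3 siRNAs against each other leaves siNC out. FOSL1, ETV5, ETV4, SPRY4 and DUSP6 had larger folds here than with siHHLA3-3 against siNC, DUSP6 only slightly (1.75 against 1.72). PHLDA1 and DUSP4 also passed 1.5-fold here, and both were below siNC with siHHLA3-1. FOSL1, with 347 CPM with siHHLA3-3 and 136 CPM with siHHLA3-1, was 2.55-fold higher with siHHLA3-3 (2.46 to 2.64). ETV5 was 2.13-fold higher (1.92 to 2.37) and ETV4 2.11-fold higher (1.88 to 2.37). SPRY4 was 1.95-fold higher (1.76 to 2.16), DUSP6 1.75-fold (1.37 to 2.24), PHLDA1 1.61-fold (1.54 to 1.67) and DUSP4 1.53-fold (1.40 to 1.68). Thus 3 of 10 genes reached 2-fold higher and 0 lower, against 0.757% and 2.12% of all genes, and 7 reached 1.5-fold higher and 0 lower, against 4.40% and 7.82%. Here too the list was chosen with earlier results of these data known. FOSL1 ranked 37 from the top of 13879 genes, ETV5 85, ETV4 95 and SPRY4 133. The median log2 ratio of the 10 genes was 0.67, and that of all genes was below 0.01 in size.

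The remaining 3 genes differed less or went the other way. SPRY2 was 1.16-fold higher with siHHLA3-3 than with siHHLA3-1 (1.02 to 1.31). DUSP5 had 107 CPM with siHHLA3-3 and 110 CPM with siHHLA3-1, and its interval held 1 (fold 0.978, 0.931 to 1.03). SPRED1 was 1.41-fold lower with siHHLA3-3 (1.26 to 1.59). With 1 added to the deposited FPKM, ETV4 and ETV5 were no longer past 2-fold, at log2 ratios of 0.91 and 0.88, while FOSL1 stayed at 1.34. The added 1 weighs more there, because the FPKM of these genes are lower than their CPM. With 1 added to the deposited TPM, ETV4 and ETV5 both had 1.03.

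Other genes of the pathway were grouped in 5 lists with 64 names, 61 of them measured above the filter. The RAS-RAF-MEK-ERK core had a median log2 ratio of 0.03 with siHHLA3-1 and -0.10 with siHHLA3-3 over 18 genes. None of the 18 was at least 1.5-fold higher with either siRNA, and 2 were at least 1.5-fold lower with siHHLA3-3, the adaptor gene GRB2 among them. Of all genes, 5.03% were that much higher with siHHLA3-1 and 3.65% with siHHLA3-3, and 5.57% were that much lower with siHHLA3-3. GRB2 stood at 178.0 CPM with siHHLA3-1 and 124.8 CPM with siHHLA3-3, against 195.3 CPM with siNC, or log2 ratios of -0.13 and -0.64. The ERK gene MAPK3 had a ratio of -0.16 with siHHLA3-3, and EGFR 0.37. With siHHLA3-3 the core was therefore not higher as the outputs were.

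Of 7 upstream inhibitors none was 1.5-fold from siNC with either siRNA. Between 3.34% and 5.57% of all genes were, in each direction and comparison, so this count is near the background. The furthest was the RAS GTPase-activating gene RASA1, at -0.33 with siHHLA3-1 and -0.53 with siHHLA3-3. Of 10 ERK effectors, the kinase gene MKNK2 was 2-fold higher with siHHLA3-1 (1.06), with a ratio of -0.12 with siHHLA3-3. The ETS gene ELK3 was 2-fold lower with siHHLA3-3 (-1.27), at 26.3 CPM with siHHLA3-3 against 65.1 CPM with siNC, and had 65.0 CPM with siHHLA3-1. Of all genes, 0.973% were 2-fold higher with siHHLA3-1 and 1.48% were 2-fold lower with siHHLA3-3. The effector medians were -0.05 and -0.17.

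Relatives of the 10 genes did not share their direction as a group. Over 15 measured relatives the medians were -0.0020 with siHHLA3-1 and -0.01 with siHHLA3-3. DUSP8, a phosphatase of the stress kinases, was the only relative past 2-fold on the log2(CPM + 1) scale, at 32.5 CPM with siHHLA3-1 and 13.3 CPM with siHHLA3-3, against 11.8 CPM with siNC. With siHHLA3-1, 3 relatives were at least 1.5-fold higher on that scale (DUSP8 at 1.39, DUSP16 at 0.88 and DUSP1 at 0.64) and 1 was lower (DUSP9, -0.66). Of all genes, 5.03% were that much higher and 3.34% that much lower. With siHHLA3-3, 1 relative was at least 1.5-fold higher (DUSP2, 0.93) and 1 lower (PHLDA2, -0.90), against 3.65% and 5.57% of all genes. As a plain ratio of CPM, DUSP2 was 2.06-fold higher with siHHLA3-3 (1.72 to 2.49), at 11.9 CPM against 5.77 CPM with siNC. PHLDA2 thus stood opposite to PHLDA1, whose ratio was 0.30.

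A further 11 ERK-induced genes outside the list had a median of 0.17 in the siHHLA3-1 library and 0.55 in the siHHLA3-3 library. With siHHLA3-3, 5 of the 11 were at least 1.5-fold higher and 1 lower, against 3.65% and 5.57% of all genes. With siHHLA3-1 the counts were 0 and 1, against 5.03% and 3.34% of all genes. SPHK1, sphingosine kinase, was the one past 2-fold, at 51.1 CPM with siHHLA3-1 and 94.7 CPM with siHHLA3-3, against 33.8 CPM with siNC, or log2 ratios of 0.58 and 1.46. As a plain ratio of CPM it was 1.51-fold higher with siHHLA3-1. These outputs were thus higher with siHHLA3-3 in a share like that of the 10 genes, and unlike them had a median above 0 with siHHLA3-1. Both lists were chosen with earlier results of these data known, so their likeness is no independent support. The difference between the lists was not tested.

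**Figure D4:**
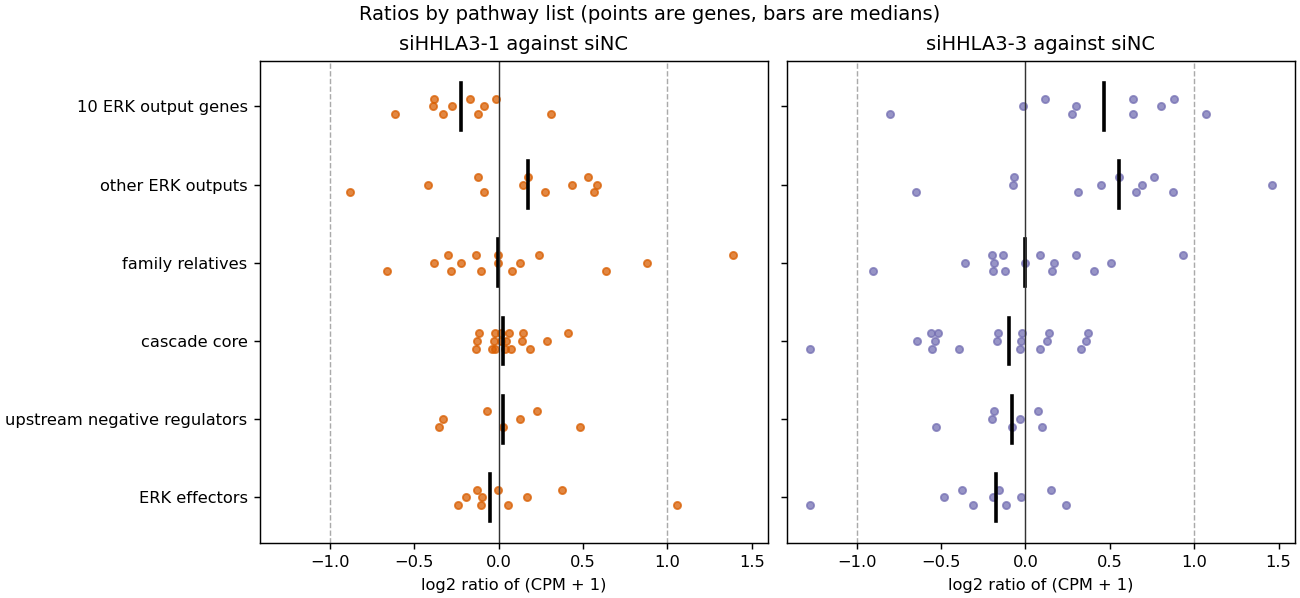
Log2 ratios of (CPM + 1) to siNC with siHHLA3-1 (left) and siHHLA3-3 (right) for the 10 genes and 5 other pathway lists; points are genes and bars are list medians. Medians with siHHLA3-3 are 0.47 for the 10 genes and 0.55 for other ERK outputs, and between -0.17 and -0.01 for the remaining lists.

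The genes most like FOSL1 were sought as those at the smallest Euclidean distance over its 2 log2 ratios to siNC, among genes whose mean reached 5 CPM. The nearest were AREG (distance 0.06), EREG (0.09) and ANGPTL4 (0.13). AREG, which encodes the EGFR ligand amphiregulin, had 12.0 CPM with siHHLA3-1 and 31.9 CPM with siHHLA3-3, against 15.2 CPM with siNC. EREG, the EGFR ligand epiregulin, had 56.5 CPM and 141 CPM, against 70.7 CPM with siNC. ANGPTL4, an inhibitor of lipoprotein lipase, had 15.9 CPM and 39.0 CPM, against 19.8 CPM with siNC. A likeness over 3 libraries describes levels that ran in parallel and nothing more.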

How the data were processed

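RNA of 3 H1975 libraries was sequenced, from 1 ug of total RNA each per the labels' protocols. The authors deposited raw counts per gene, and, per the file headers, CPM scaled to the library total and FPKM and TPM scaled by gene length. Per the submitters' processing notes, Bowtie2, HISAT, HISAT2 and TopHat2 were used with hg19. For the counting program, annotation and strand use, nothing is given in the sources used here. Listed genes hold all but 0.305% to 0.355% of the library totals.

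Library totals were recovered from the deposited counts and CPM. Counts were scaled with TMM factors (edgeR 4.0.16, R 4.3.3) of 1.01 for siHHLA3-1, 1.01 for siHHLA3-3 and 0.978 for siNC. Ratios are log2 of (CPM + 1) over (CPM + 1), which understates low genes. Folds are ratios of CPM with no added 1, and counts of genes past 2-fold or 1.5-fold use the ratios of (CPM + 1). Kept were genes whose mean reached 1 CPM. Intervals are exact Poisson (levels) or binomial (folds) intervals, and 3 counts correspond to 0.0845, 0.110 and 0.0935 CPM with siHHLA3-1, siHHLA3-3 and siNC. Alternatives were DESeq2 1.42.0 size factors, library totals, a pseudocount of 0.1, other filters and thresholds, and the deposited TPM or FPKM. To TPM and FPKM too, 1 was added before the ratio was taken. Python 3.11.15, scipy 1.17.1 and pandas 2.3.3 were used.

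The members and lists were chosen with earlier results of these data known. The text names the 10 genes, HHLA3, in each other list up to 4 genes past 2-fold in either comparison with siNC (or the furthest), and the 3 genes nearest to FOSL1. EGFR, MAPK3, GRB2, CD14, DUSP1, DUSP2, DUSP9, DUSP16, PHLDA2, CCND1, HBEGF, EGR1, IER3, UPP1 and MYC were added after their values were seen. Some genes of these lists are not reported here.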

Additional observations from a re-analysis of the deposited data

Results flagged for a closer look

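FOSL1, ETV5, ETV4 and PHLDA1 lay above siNC with siHHLA3-3 and below it with siHHLA3-1, with counting intervals of the fold that left out 1 on both sides. For ETV5 the siHHLA3-1 interval came close to 1. The share of all genes that meet this rule was not computed. Intervals left out 1 for 61.2% of all genes with siHHLA3-1 and for 58.2% with siHHLA3-3, so how unusual these genes are is unknown. The log2 ratios of siHHLA3-3 over siHHLA3-1 were 1.34 for FOSL1, 1.05 for ETV5, 1.03 for ETV4 and 0.68 for PHLDA1. With 1 library per siRNA this difference between the siRNAs was not tested.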

How the results depend on the processing

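At 1.5-fold in place of 2-fold, the genes past the threshold numbered 1 lower with siHHLA3-1 and 5 higher and 1 lower with siHHLA3-3, both against siNC, and 7 higher with siHHLA3-3 against siHHLA3-1. With 1 added to the deposited FPKM, which lowers ratios of genes with low FPKM, 1 gene and not 3 was 2-fold higher with siHHLA3-3 than with siHHLA3-1. Every other setting tried gave the same 2-fold counts. The list median ran from -0.28 to -0.16 for siHHLA3-1 against siNC, from 0.30 to 0.52 for siHHLA3-3 against siNC and from 0.58 to 0.73 for siHHLA3-3 against siHHLA3-1, also without the genes carrying CAGAATG, an alternative chosen after seeing the data. Of the single genes, DUSP6 with siHHLA3-1 and DUSP4 with siHHLA3-3 changed sign, to at most 0.03 and 0.04, under library totals, TPM and FPKM. Over all genes, a pseudocount of 0.1 gave 233 genes higher and 80 lower with siHHLA3-1 and 185 higher with siHHLA3-3 against siNC, and FPKM gave 89 and 23 with siHHLA3-1, 68 and 107 with siHHLA3-3, and 50 and 158 between them. No paired analysis was possible because each group held 1 library. Depth limits DUSP6 most, with 108 to 158 counts.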

Other observations

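CCND1, the cyclin that carries cells through G1 and an ERK-induced gene, was the output furthest apart between the siRNAs among those examined. It stood at 177 CPM with siHHLA3-1 and 516 CPM with siHHLA3-3, against 328 CPM with siNC, and its log2 ratio of siHHLA3-3 over siHHLA3-1 was 1.53. HBEGF, an EGFR ligand gene, lay the other way, at 12.4 CPM with siHHLA3-1 and 4.92 CPM with siHHLA3-3, against 8.29 CPM with siNC. The immediate early genes EGR1 and IER3 were above siNC with both siRNAs, with log2 ratios of 0.17 and 0.44 with siHHLA3-1 and of 0.88 and 0.76 with siHHLA3-3. UPP1 and MYC stood at 0.14 and -0.09 with siHHLA3-1 and at 0.69 and 0.55 with siHHLA3-3.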
